A study of Mus musculus with 15 samples.

Results

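Phlda1, Rrad and Sprr1a are 3 mouse genes whose RNA was close to absent before induction and reached levels that differed between clones. They make up 3 of the 52636 gene identifiers in the count table. They were chosen by their own values in these libraries, namely strong rises over the 0h group and 4h levels that depended on the clone, so those features are described here and not tested. The study measured total RNA, depleted of ribosomal RNA, in EpiLCs, which are epiblast-like cells made from mouse embryonic stem cells. The medium was N2B27 with 12 ng/ml bFGF, 20 ng/ml Activin A and 1 µM XAV939, and the EpiLC time was 48 h in every sample. All 15 samples came from the CRAFR26 line, which carries a c-RAF kinase construct that 4-hydroxytamoxifen (4OHT) switches on, and which was sampled as 2 clones, 4 and 8. All of them, the 0h controls included, had first spent 2 h in 250 nM PD17, an inhibitor of FGF receptors. The 0h group had no 4OHT (1 clone 4 and 2 clone 8 samples). The 2h and 4h groups had 250 nM 4OHT for 2 and 4 h, and the rev group had 4OHT for 4 h and then a MEK inhibitor (MEKi) for 2 h. Whether 4OHT stayed in the medium with MEKi is not given in the sources used here. Each of those 3 groups held 2 samples of each clone. The labels call the samples replicates without saying that they came from separate cultures, so p-values measure the spread between these samples, which may be technical. A line seen as 2 clones is also a limit of the model, since a difference between clone 4 and clone 8 is a difference between 1 clone and 1 other.

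c-RAF phosphorylates MEK, and MEK phosphorylates ERK, which enters the nucleus and drives a fast wave of transcription. The first genes of that wave encode transcription factors such as Egr and AP-1 proteins, followed by feedback inhibitors of the pathway and by other delayed early genes. Phlda1 encodes a pleckstrin homology-like protein and is widely used as a readout of ERK output. Rrad encodes a small GTPase of the RGK family that binds calcium channel beta subunits. Sprr1a encodes a small proline-rich protein of the cornified envelope of the epidermis and is also known as a gene induced by injury in neurons and heart muscle.

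The Sprr1a promoter is shown because its upstream bases hold matches to the AP-1 motif, whose subunit genes are described further on. The stretch is chr3:92485896-92486131 of GRCm38.p6, minus strand, the 236 bases before the GENCODE start of Sprr1a, taken from the RefSeq promoter table, which held 1 of the 3 genes. RefSeq places the start 14 bases further downstream. Capitals mark the matches to AP-1 (TGANTCA) and to the TATA motif (TATAAA), read 5′ to 3′.

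Sprr1a upstream: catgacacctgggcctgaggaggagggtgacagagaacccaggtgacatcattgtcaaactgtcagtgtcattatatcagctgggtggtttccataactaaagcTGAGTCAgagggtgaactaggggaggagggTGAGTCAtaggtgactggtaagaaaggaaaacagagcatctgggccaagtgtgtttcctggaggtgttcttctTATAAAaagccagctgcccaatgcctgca

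The first bases of the AP-1 matches lay 132 and 102 bases upstream of the GENCODE start, and that of the TATA match 29 bases upstream. Of 32851 promoter entries cut to the same length and searched on both strands, 6.50% held at least 1 match to the AP-1 motif and 0.304% held at least 2. A match to TATAAA stood in 11.9% of them. The ETS motif CCGGAAG, present in 5.90% of entries, and the CArG box, present in 1.42%, had no match in these letters.

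Library totals ran from 1552022 to 13004556 counts, and the 4 libraries of the 4h group were the lowest, at 1552022 to 6658950. The 4h libraries also had the highest share of mitochondrial counts, 7.21% to 12.4%, against 2.67% to 6.98% in the other groups, and the part of these differences in the results below was not tested. Levels are given as CPM, counts relative to the library total after scaling by edgeR's TMM factors. A value of 3 counts, used here as the floor of a library, was worth 0.160 to 1.83 CPM. All 3 genes passed the filter on low counts, Sprr1a only through the groups in which it was present. In bulk RNA, fewer cells with a transcript and less transcript per cell cannot be told apart.

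Phlda1 (ENSMUSG00000020205, chr10:111506286-111508645, plus strand, 2205 exon bases) was present at 0.323 CPM in the clone 4 library of 0h and at 0.467 and 0.604 CPM in those of clone 8. At 2h it stood at 5.10 and 5.82 CPM in clone 4 and at 2.96 and 2.08 CPM in clone 8. At 4h the clone 4 libraries had 20.1 and 29.3 CPM and the clone 8 libraries 2.27 and 1.50 CPM. Both 4h libraries of clone 4 were above every other library, whereas the 4h libraries of clone 8, on 10 and 4 counts, overlapped the 2h range of the same clone. In rev, Phlda1 stood at 5.10 and 5.67 CPM in clone 4 and at 2.25 and 2.17 CPM in clone 8, near the 2h levels of each clone. The mean in clone 4 was 24.7 ± 6.50 CPM (SD, n = 2) at 4h, 4.53-fold its 2h mean, and in clone 8 it was 1.89 ± 0.541 CPM (SD, n = 2), 0.748 times its 2h mean. From 0h to 2h the means rose 16.9-fold in clone 4, whose 0h value is 1 library, and 4.71-fold in clone 8. In order of level, clone 4 ran from 0h to 2h and rev, which did not differ beyond their spread, and then to 4h. In clone 8, 2h, 4h and rev did not differ beyond their spread. Fitted over both clones with clone as a term, Phlda1 differed by a log2 fold change of 2.85 (SE 0.657) in 2h vs 0h and 4.21 (SE 0.688) in 4h vs 0h. Without the clone 4 library of 0h these became 1.86 and 3.14.

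Rrad (ENSMUSG00000031880, chr8:104628070-104631327, minus strand, 1577 exon bases) had 4 counts in each 0h library, 0.215 CPM in clone 4 and 0.267 and 0.484 CPM in clone 8. At 2h it reached 64.9 and 53.6 CPM in clone 4 and 16.0 and 23.0 CPM in clone 8. At 4h it was back to 27.4 and 28.3 CPM in clone 4 and to 2.95 and 3.01 CPM in clone 8. In rev it stood at 47.2 and 52.9 CPM in clone 4 and at 21.5 and 16.6 CPM in clone 8. Rrad thus had a trough at 4h between higher levels at 2h and in rev, and within each clone no 4h library overlapped the 2h or rev libraries. The 2h mean was 2.13 times the 4h mean in clone 4 and 6.55 times in clone 8. The rev mean was 1.79 times the 4h mean in clone 4 and 6.39 times in clone 8. Of the 13451 genes tested, 230 (1.71%) had every 0h and 4h library below every 2h and rev library within both clones. Rrad was one of them, and Phlda1 and Sprr1a were not. The order in both clones was 0h, 4h, rev and 2h. Rev and 2h overlapped in clone 8, and in clone 4 their means of 50.0 ± 4.00 and 59.3 ± 7.94 CPM (SD, n = 2 each) were apart by little more than the spread. The fitted log2 difference of rev vs 2h was -0.14 (SE 0.379). The rise over 0h was 275.1-fold in clone 4 and 52.04-fold in clone 8 at 2h, and 129.4-fold and 7.94-fold at 4h, on 0h counts close to the floor. Fitted over both clones, it was 6.69 (SE 0.646) on the log2 scale in 2h vs 0h and 5.05 (SE 0.662) in 4h vs 0h, or 5.59 and 3.89 without the clone 4 library of 0h.

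Sprr1a (ENSMUSG00000050359, chr3:92483952-92485895, minus strand, 806 exon bases) had 0 counts in all 3 libraries of 0h, which allows up to 0.162 to 0.363 CPM. At 2h it stood at 22.4 and 21.8 CPM in clone 4 and at 7.40 and 6.41 CPM in clone 8. At 4h it had 6.10 and 12.3 CPM in clone 4, on 10 and 50 counts, while clone 8 had 1 count in one library and none in the other. In rev it stood at 8.88 and 21.5 CPM in clone 4 and at 8.72 and 7.04 CPM in clone 8. The 2h mean was therefore at least 60.1-fold higher than 0h, and the rev mean at least 47.8-fold, taking the mean of 3 counts per library as the 0h level. The 4h mean was at least 19.3-fold higher than 0h. That bound rests on clone 4 and was 8.65-fold without the library 4h clone4_2. In clone 8, Sprr1a was under the floor at 4h, with a 2h mean at least 7.63-fold and a rev mean at least 8.71-fold higher. In clone 4 the 2h mean was 2.40 times the 4h mean, and the rev libraries lay so far apart that they overlapped the 4h range. The order in clone 4 was 0h, 4h, rev and 2h, with 4h and rev, and rev and 2h, not apart beyond their spread. In clone 8 it was 0h and 4h, both at or under the floor, then 2h and rev, whose means of 6.91 ± 0.695 and 7.88 ± 1.19 CPM (SD, n = 2 each) did not differ beyond their spread.

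**Figure D1:**
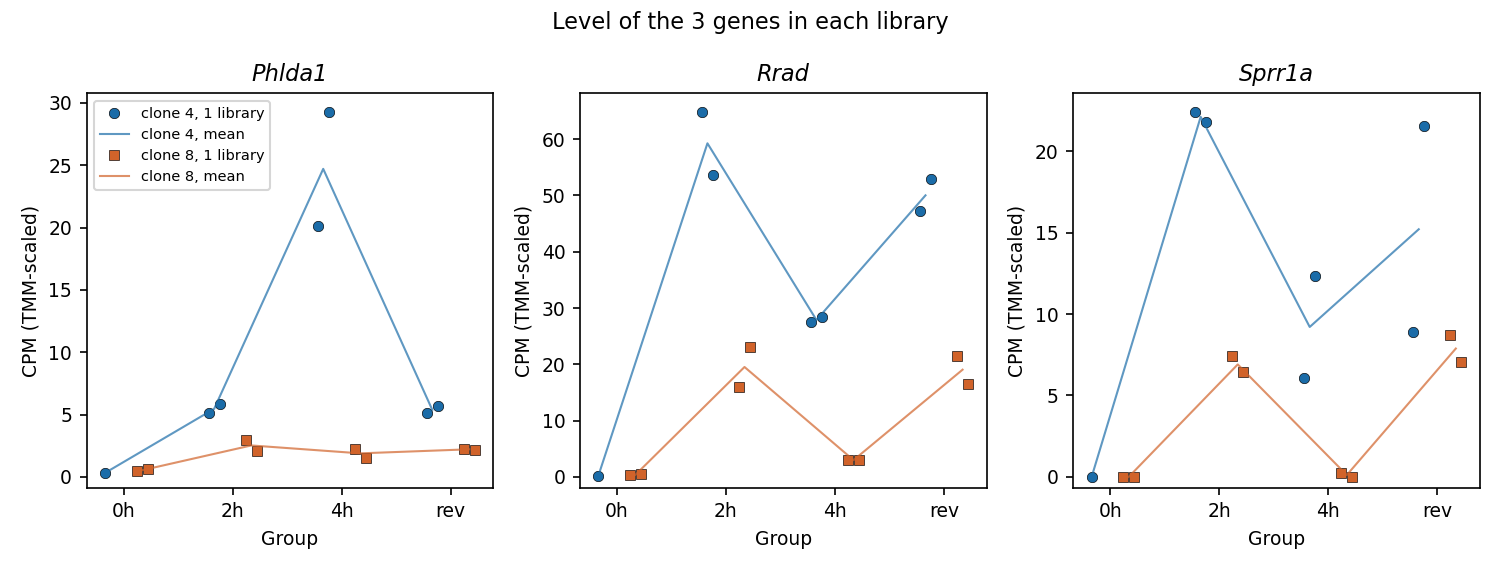
Level of each gene in each library, as CPM scaled by TMM factors on a linear axis, against the group. Circles and squares are single libraries of clone 4 and clone 8, and lines join the clone means (n = 2, and 1 for clone 4 at 0h). Phlda1 in clone 4 is highest at 4h, while Rrad has a 4h trough in both clones and Sprr1a in clone 8 has 1 and 0 counts at that stage.

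The 3 genes therefore shared a low start and a higher level in clone 4 at each later stage, but not their course. Phlda1 in clone 4 was higher at 4h than at 2h and lower in rev than at 4h, whereas Rrad went the other way at both steps in both clones, as did the means of Sprr1a. In the fit over both clones the log2 difference of 4h vs 2h was 1.36 (SE 0.482) for Phlda1, -1.64 (SE 0.413) for Rrad and -1.88 (SE 0.665) for Sprr1a. That of rev vs 4h was -1.48 (SE 0.487) for Phlda1, 1.50 (SE 0.415) for Rrad and 1.74 (SE 0.680) for Sprr1a. Without the library 4h clone4_2, 4h vs 2h was 0.78 for Phlda1 and -3.02 for Sprr1a, and rev vs 4h was -0.89 and 2.85. Both comparisons share the 4h libraries and are descriptions. Over the 15 samples Pearson's r of log2 CPM was 0.956 between Rrad and Sprr1a, 0.797 between Phlda1 and Rrad and 0.743 between Phlda1 and Sprr1a, and all 3 values share the same libraries and the same low 0h group. Per kilobase of exon, the only scale on which the genes can be set side by side, Rrad was the most abundant at 2h in clone 4 with a mean level of 37.6 CPM per kilobase. Sprr1a followed with 27.4 and Phlda1 with 2.48 CPM per kilobase. At 4h in clone 4 the mean levels were 17.7 CPM per kilobase for Rrad, 11.4 for Sprr1a and 11.2 for Phlda1.

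The difference between the clones at 4h was one of the reasons for choosing the genes. It came to 13.1-fold for Phlda1 and 9.35-fold for Rrad, higher in clone 4, and at least 10.2-fold for Sprr1a. The clone differences at 2h and in rev were not used for the choice and were tested with edgeR over all 13451 genes. The 2h libraries did take part in the choice through the rises over 0h. Genes picked for a clone difference at 4h may also tend to show one at other stages. The tests are therefore not independent of the choice. At 2h all 3 genes were lower in clone 8, and no library of one clone overlapped the other. The fitted log2 difference was -1.13 (SE 0.275, edgeR adjusted p = 0.0234) for Phlda1, -1.60 (SE 0.189, adjusted p = 5.02e-05) for Rrad and -1.68 (SE 0.350, adjusted p = 0.00782) for Sprr1a. Over all genes, 2.03% were called lower and 1.87% higher in clone 8 at 2h, shares that do not allow for how the 3 genes were chosen. Scaling by total count turned the split of calls from 48% higher to 88% higher, shifted the median difference over all genes to 0.43, and left the 3 genes short of the threshold, at edgeR adjusted p = 0.432 for Phlda1, 0.135 for Rrad and 0.106 for Sprr1a. Relative to that median the differences were -1.16, -1.56 and -1.69.

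The call for Rrad at 2h held without any 1 of the 4 libraries, with edgeR adjusted p up to 0.00151. That for Phlda1 was lost without 2h clone4_1 (edgeR adjusted p = 0.0728), clone4_2 (0.130) or clone8_2 (0.196), and with the 2h samples fitted alone (0.116). That for Sprr1a was lost without 2h clone4_1 (edgeR adjusted p = 0.0544), clone8_1 (0.0646) or clone8_2 (0.0827). Each such fit leaves 1 clone with a single library, assumed to vary like the other groups.

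In rev, Phlda1 and Rrad were again lower in clone 8, with fitted differences of -1.28 (SE 0.288, edgeR adjusted p = 0.0134) and -1.39 (SE 0.190, edgeR adjusted p = 0.000258) on the log2 scale. Of all genes, 1.70% were called lower and 2.30% higher in clone 8 in rev, and of the calls 57.6% were higher, or 3.13% with scaling by total count. For Sprr1a the difference was -0.94 (SE 0.350, 95% interval -1.63 to -0.26), which did not pass (edgeR adjusted p = 0.164), although no library overlapped. Without rev clone4_1 it was -1.45 (edgeR adjusted p = 0.0425) and without rev clone4_2 it was -0.18 (edgeR adjusted p = 0.925). The Rrad call held without any 1 library, and the Phlda1 call was lost whichever of the 4 libraries was left out, with edgeR adjusted p of 0.0634 to 0.138 and differences of -1.35 to -1.21. Whether the clones differed more at 2h than in rev was tested as an interaction, which was added after the data had been seen. Its values were -0.15 (95% interval -0.93 to 0.63) for Phlda1, 0.20 (-0.31 to 0.72) for Rrad and 0.74 (-0.22 to 1.69) for Sprr1a, and each had an edgeR adjusted p of 1.00.

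**Figure D2:**
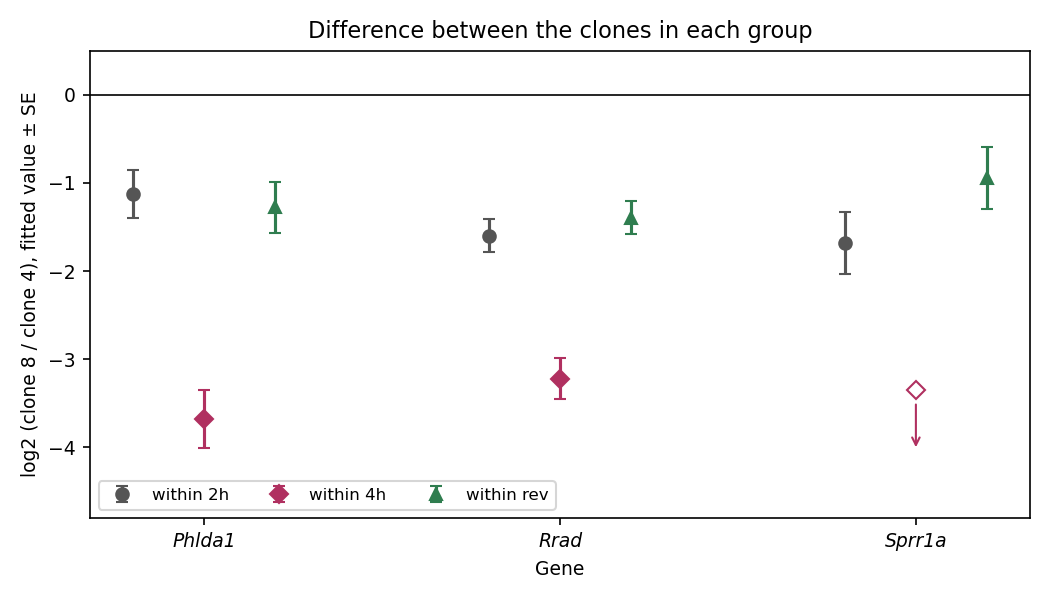
Fitted log2 difference of clone 8 from clone 4 for each gene within 2h, 4h and rev, with bars of 1 SE (edgeR, 2 libraries of each clone). All values lie below 0, and those at 4h, which helped choose the genes and are not tested, lie lowest; the open diamond with an arrow is the bound for Sprr1a at 4h, where clone 8 had 1 and 0 counts.

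The genes of the pathway around them were taken from lists made with earlier results known. The MEK/ERK output list holds the 9 genes of the MAPK activity score other than Phlda1, among them the Sprouty inhibitors Spry2 and Spry4, the ERK phosphatases Dusp4 and Dusp6, and the receptor Epha2. In 2h vs 0h, 4 of its 9 genes rose and 2 fell, against 3.98% of all genes higher and 2.46% lower. The largest rises were in Spry4 (log2 fold change 6.51, SE 0.185, edgeR adjusted p = 9.79e-17), Dusp6 (5.37, SE 0.400, adjusted p = 1.85e-05) and Epha2 (3.60, SE 0.270, adjusted p = 4.69e-06), while Ccnd1 and Etv4 fell. Only 1 of those falls was called without 0h clone4_1, 0h clone8_1, 0h clone8_2, 2h clone4_2 or 2h clone8_1, and 0 of them with scaling by total count. In 4h vs 0h, 7 rose and Ccnd1 fell, against 20.5% of all genes higher and 18.9% lower, and the fall was lost without 0h clone4_1 or 4h clone4_1. In rev vs 4h, 8 of the 9 fell and Dusp4 was not called, against 15.6% of all genes lower and 15.1% higher, and the median difference was -0.92 beside 0.02 over all genes. With scaling by total count 4 of the 9 fell. Under that scaling the median log2 difference over all genes was -0.73 in 4h vs 0h and 0.45 in rev vs 4h, which changed the share of calls that were higher from 52.0% to 7.11% and from 49.2% to 88.0%. Phlda1 in clone 4 went the way of this list after MEKi, and Rrad was higher after MEKi than before it in every library of both clones. Sprr1a was so in clone 8, while in clone 4 its rev and 4h libraries overlapped.

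AP-1 is a dimer of Fos and Jun family proteins. Of its 7 listed subunit genes, 4 rose in 2h vs 0h, beside 3.98% of all genes, and the others were not called, with a median log2 difference of 2.40 beside 0.01 over all genes. Fos (5.61, SE 0.527, edgeR adjusted p = 5.82e-05), Junb (5.27, SE 0.697, adjusted p = 0.00146), Fosl1 (2.81, SE 0.440, adjusted p = 0.00116) and Fosb (2.12, SE 0.517, adjusted p = 0.0125) rose. At 2h, 4 of the 7 were lower in clone 8, beside 2.03% of all genes: Fos, Fosl1, Fosl2 and Junb. This count was 2 without 2h clone4_1 or clone8_1 and 0 with scaling by total count. Fosl1 had 19.6 and 15.9 CPM at 2h in clone 4 and 6.09 and 6.52 CPM in clone 8. At 4h it had 12.8 and 14.0 CPM in clone 4 and 1.13 and 1.88 CPM in clone 8, and in rev 8.39 and 8.86 against 2.95 and 3.31 CPM. In rev vs 4h, in which Rrad had its higher rev values, the 7 subunit genes had fitted log2 differences between -0.27 and 0.22 and edgeR adjusted p of 0.405 or more. That fit averages over the clones, whose difference changed between these groups. The log2 difference of clone 8 from clone 4 was -2.49 at 4h and 0.56 in rev for Jun. For Fosl2 it was -4.01 and -0.65, for Fos -2.24 and -0.03, for Junb -3.49 and -1.67, and for Fosl1 -3.21 and -1.45. For Fosb it was 0.21 and 1.65, and for Jund -0.24 and -0.46. Changes within each clone were not tested.

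Among the relatives of Phlda1, Phlda2, an imprinted gene known for limiting placental growth, rose in 2h vs 0h by 2.15 on the log2 scale (SE 0.251, edgeR adjusted p = 0.000123) and was higher in rev than at 4h by 0.66 (SE 0.218, adjusted p = 0.0333). Its rev and 2h levels differed by 0.38 (SE 0.211), which did not pass (edgeR adjusted p = 0.544). Like the 3 genes it was lower in clone 8, at 27.2 and 30.7 CPM against 67.8 and 60.0 CPM in clone 4 at 2h (edgeR adjusted p = 9.90e-05). Its 4h libraries had 64.6 and 69.9 CPM in clone 4 and 14.3 and 19.6 CPM in clone 8. Phlda3, a p53 target that restrains Akt, went the other way and fell by 1.61 on the log2 scale in 4h vs 0h (SE 0.209, edgeR adjusted p = 1.09e-05). Among the relatives of Rrad, Gem had at most 6 counts and Rem1 at most 8 counts in any library. Rem2 was lower at 4h than at 0h by a log2 difference of -2.04 (SE 0.521, edgeR adjusted p = 0.0035), on 0 to 4 counts per 4h library. Of the 4 calcium channel beta subunit genes, 3 were tested, with log2 differences between -0.21 and 0.28 in 2h vs 0h that were not called.

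Sprr1a was the one gene of its family with more than 1 count. The 14 other listed Sprr genes had 1 count in all libraries together, of Sprr2b at 2h, and 13 had none. Other genes of the cornified envelope did move. Of 10 listed, 7 passed the filter, and 2 of them rose in 2h vs 0h, beside 3.98% of all genes, while 5 were not called. Lor encodes loricrin, a main protein of that envelope. It had 0.539, 0.0667 and 0.121 CPM in the 0h libraries and then 31.1 and 31.7 CPM in clone 4 and 11.4 and 11.1 CPM in clone 8 at 2h (log2 fold change 6.16, SE 0.610, edgeR adjusted p = 8.29e-05). At 4h Lor stood at 17.1 and 13.3 CPM in clone 4 and at 1.13 and 1.50 CPM in clone 8. In rev it stood at 21.0 and 28.4 CPM in clone 4 and at 18.0 and 15.7 CPM in clone 8 (rev vs 4h 1.85, SE 0.426, edgeR adjusted p = 0.00564). Ivl, which encodes involucrin, rose in 2h vs 0h from 0 or 1 count per 0h library (edgeR adjusted p = 0.00817) but stayed between 0 and 2.44 CPM. Evpl and Ppl, which encode the plakins envoplakin and periplakin, were not called in 2h vs 0h. In 4h vs 0h, Lor (log2 fold change 4.50, SE 0.637, edgeR adjusted p = 0.00015) and Ivl (3.70, SE 1.25, adjusted p = 0.0213) were higher. Evpl fell by 2.11 on the log2 scale (SE 0.265, edgeR adjusted p = 2.80e-06). Of all genes, 20.5% were called higher and 18.9% lower in that comparison.

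The genes whose log2 CPM over the 15 samples was most like that of each gene were ranked by Pearson's r among the 13450 other tested genes. For Rrad these were Egr3 (r = 0.990), Nab2 (0.981), Lor (0.978), Nptx1 (0.970) and Phlda2 (0.962). Egr3 is an immediate early transcription factor and Nab2 a corepressor of Egr proteins. Egr3 had 138 and 146 CPM at 2h in clone 4 and 58.0 and 49.3 CPM in clone 8, then 55.5 and 53.7 against 2.95 and 2.63 CPM at 4h. Sprr1a ranked 7 in likeness to Rrad, and Rrad ranked 6 in likeness to Sprr1a. For Sprr1a the list was Srxn1 (0.971), Lor (0.966), Nptx1 (0.964), Hmox1 (0.963) and Baiap2 (0.963). Srxn1 and Hmox1 encode antioxidant enzymes, sulfiredoxin and heme oxygenase. In contrast to Sprr1a, Srxn1 was well expressed at 0h, with 18.4 to 19.6 CPM, and its 4h libraries of clone 8, at 16.8 and 18.8 CPM, were back at that level. For Phlda1 the list was Twsg1 (0.979), Bhlhe40 (0.977), Jak1 (0.973), Sertad2 (0.966) and Odaph (0.964). Twsg1, a secreted regulator of BMP signalling, had 92.0 and 95.1 CPM in the 4h libraries of clone 4 and at most 58.4 CPM in any other. All of these correlations share libraries, depth and the 0h group, and they are descriptions.

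**Figure D3:**
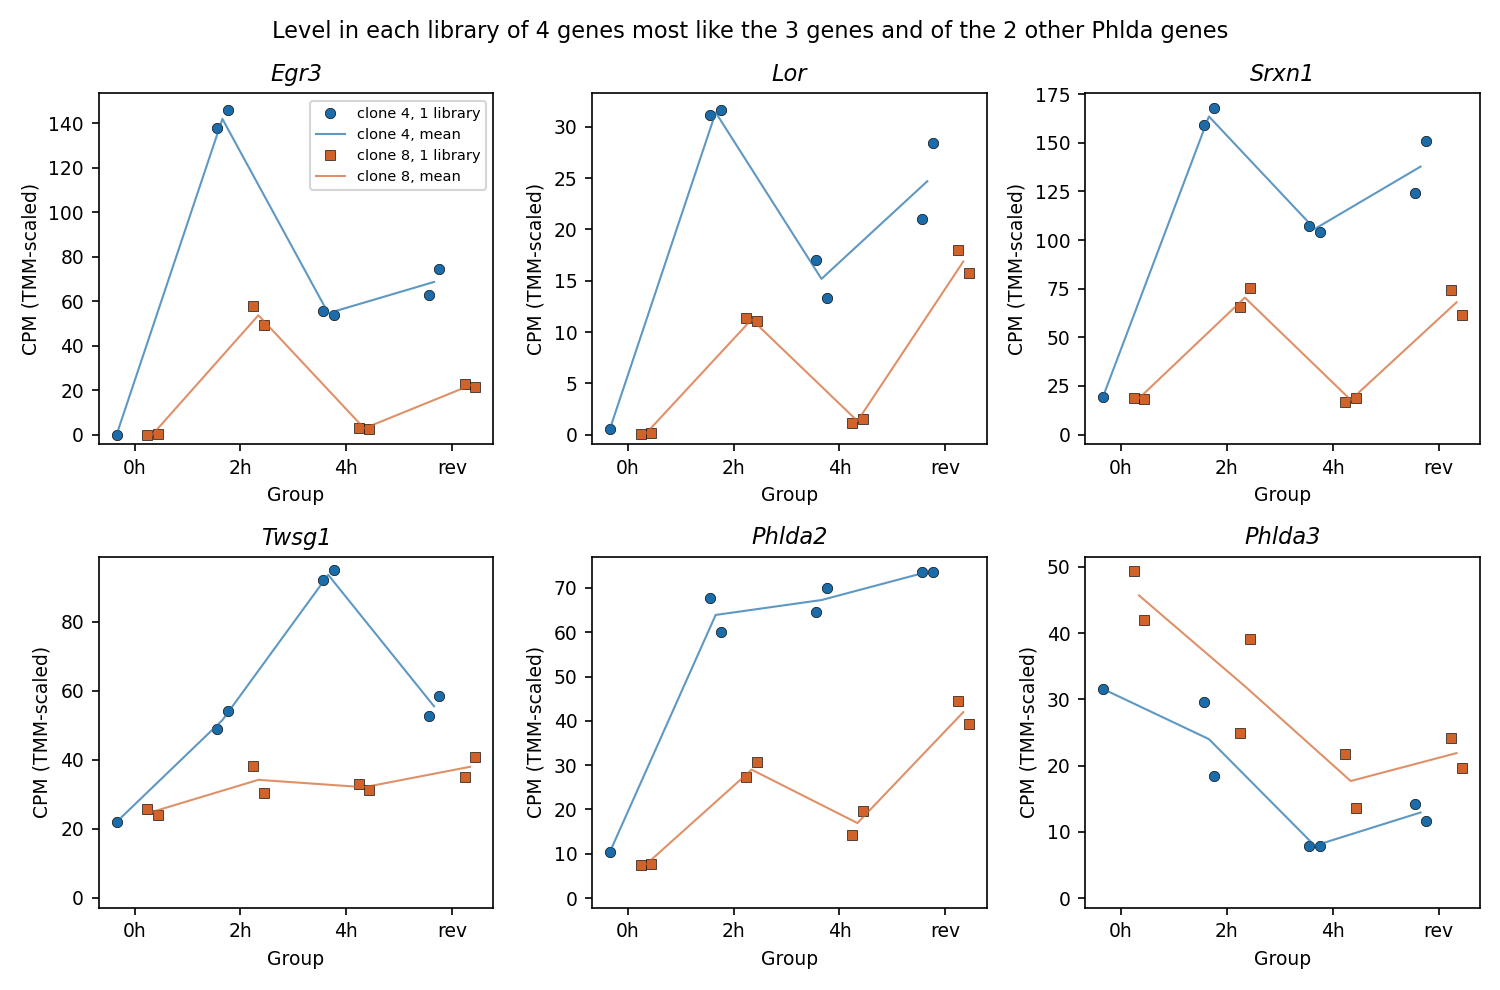
Level in each library, as CPM on a linear axis, of Egr3, Lor, Srxn1 and Twsg1, which were among the genes most like the 3 genes, and of Phlda2 and Phlda3. Symbols and lines are as for the 3 genes. Egr3, Lor and Srxn1 are lower at 4h than at 2h in the fit over both clones, and at 4h lower in clone 8 than in clone 4. In rev vs 4h Lor was called higher, while Egr3 (1.21, SE 0.550, edgeR adjusted p = 0.128) and Srxn1 (1.02, SE 0.361, edgeR adjusted p = 0.0549) were not called. Twsg1 is highest in the 4h libraries of clone 4, and Phlda3 is lower at 4h than at 0h in both clones.

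Nap1l1, the nearest neighbour of Phlda1 at 8.1 kb, stood at 239 to 361 CPM in all libraries and was not called in 2h vs 0h. It was lower in 4h vs 2h (log2 difference -0.34, edgeR adjusted p = 0.00346) and higher in rev vs 4h (0.30, edgeR adjusted p = 0.0109). On either side of Rrad, Cdh16 (3.7 kb away) had at most 2 counts in any library and Ciao2b (8.5 kb away) was at 4.84 to 18.5 CPM with its highest value at 4h. Pdp2, 29.0 kb from Rrad, was lower in 4h vs 2h (log2 difference -0.83, edgeR adjusted p = 5.91e-05) and higher in rev vs 4h (0.64, adjusted p = 0.00106). Unlike Rrad, Pdp2 was higher in clone 8 at 2h (0.68, edgeR adjusted p = 0.00827) and in rev (1.12, adjusted p = 0.000176). Sprr3 and Sprr4, 25.2 and 14.4 kb from Sprr1a, had no count. Whether reads were counted by strand is not given in the sources used here, so overlapping genes on the other strand matter. Gm28592, a lincRNA antisense to Phlda1, shares 727 of its exon bases (33.0%) and had no count in any library. Gm33023, antisense to Rrad, shares 141 bases (8.94%) and had at most 9 counts in a library.

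Markers of the labelled cell type were present. The 6 listed markers of EpiLCs and pluripotency, Pou5f1 (Oct4) and Fgf5 among them, summed to 1158 to 1396 CPM at 0h, 1077 to 1287 CPM at 2h, 679 to 759.6 CPM at 4h and 947 to 1048 CPM in rev. In 4h vs 0h, 4 of the 6 fell, Pou5f1 and Fgf5 included, while Sox2 rose by 2.34 on the log2 scale (SE 0.133, edgeR adjusted p = 4.18e-11) and Otx2 by 1.12 (SE 0.145, edgeR adjusted p = 4.00e-06), against 20.5% of all genes higher and 18.9% lower. Of 6 naive pluripotency markers, 5 rose in 4h vs 0h, and 5 fell in rev vs 4h against 15.6% of all genes. Their sum was 17.6 to 24.7 CPM at 0h, 20.1 to 25.1 CPM at 2h, 40.9 to 160.7 CPM at 4h and 21.7 to 29.4 CPM in rev. The level at 4h depended on the clone. The log2 difference of clone 8 from clone 4 was 2.78 for Esrrb, 2.53 for Nr0b1, 1.09 for Tfcp2l1 and 0.93 for Zfp42. Tbx3 (1.05, edgeR adjusted p = 0.0605) and Klf4 (0.41, edgeR adjusted p = 0.657) did not pass. Nr0b1, 1 of these 6, was higher in clone 8 at 2h (log2 difference 1.46, SE 0.30, edgeR adjusted p = 0.00776) and in rev (1.73, SE 0.296, edgeR adjusted p = 0.00187), opposite in sign to the 3 genes.

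The epidermal genes Sprr1a and Lor were not accompanied by other keratinocyte markers. Krt5, Krt14, Trp63 and Dsg3 had at most 2 counts in any library, and the list of 6, nearly all of it the integrin Itga6, summed to 63.8 to 72.0 CPM at 0h, 53.6 to 60.8 CPM at 2h, 49.4 to 77.9 CPM at 4h and 51.7 to 60.5 CPM in rev. In the list of 6 fibroblast markers, Col1a1, 1 of its 3 tested genes, was lower in clone 8 at 2h (log2 difference -1.37, SE 0.380, edgeR adjusted p = 0.0476) and in rev. Its clone difference at 0h, with 1 clone 4 library, was already -1.46, where Phlda1 and Rrad had 0.67 and 0.68. Col1a1 was not called in 2h vs 0h (0.32, SE 0.318, edgeR adjusted p = 0.607). Of those 3 tested genes, Thy1 and Dcn were lower in 4h vs 0h, and all 3 were higher in rev vs 4h, by 1.64 for Col1a1, 1.56 for Thy1 and 2.74 for Dcn (edgeR adjusted p of 0.00322 or less), where 15.1% of all genes were higher. The list summed to 4.27 to 10.7 CPM at 0h, 4.54 to 10.9 CPM at 2h, 0.376 to 6.10 CPM at 4h and 7.97 to 17.3 CPM in rev, with Lum at 0 counts after 0h. Its lowest 4h sum was under the floor of 3 counts, worth 0.681 to 1.83 CPM in the 4h libraries. The log2 differences against 4h thus rest in part on very few counts. Of 6 trophoblast markers 3 were tested and 2 rose in 4h vs 0h, beside 20.5% of all genes, with sums of 3.63 to 5.87 CPM at 0h, 3.92 to 8.12 CPM at 2h, 10.4 to 16.7 CPM at 4h and 7.87 to 11.3 CPM in rev, and with Elf5 at 0 counts at 4h. The part of these markers in the results was not tested.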

How the data were processed

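Gene counts per sample were deposited as 1 table of raw counts for 15 samples. Per the submitters' processing notes, bcl2fastq 2.19.1, STAR 2.5.3a and the mm10 build were used; the counting tool, its annotation and its use of strand are not given in the sources used here. Per the design text the authors discarded 1 sample of 0h. Of 52636 identifiers, 52403 were named from GENCODE M21 (mm10), the source of coordinates and exon lengths.

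Counts were scaled with TMM factors and tested with edgeR 4.0.16 (R 4.3.3) after filterByExpr (minimum count 10, minimum total 15), leaving 13451 genes. Group comparisons used all 15 samples with clone as an additive term, and clone comparisons used 1 coefficient for each group in each clone. Quasi-likelihood tests with the bias-adjusted deviances of that version were adjusted over all tested genes by Benjamini-Hochberg, with a threshold of 0.05. The method was tested on simulated data. Folds of means are ratios of mean CPM; those against a group at the floor use 3 counts per library. Intervals cover 95% from the SE, and floors cover counting error only, since reads carry no molecular identifiers.

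The 3 genes and all lists were chosen with earlier results of these data known. Named genes are the 3 genes, listed genes with the largest changes, near neighbours and the 5 genes most like each by Pearson's r (log2 CPM, prior count 2). Numbered samples did not pair: of 9 pairs of same-numbered samples, 1 had a correlation of deviations over 0.1 (-0.19 to 0.26). Libraries of the same group and clone differed beyond counting noise (chi-square per degree of freedom 5.49 to 199). Alternatives were scaling by total count, DESeq2 1.42.0, no filter, abundant genes left out, a replicate block, fits of the compared groups alone and each library left out.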

Additional observations from a re-analysis of the deposited data

Results flagged for a closer look

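The Sprr1a level in rev clone4_2, at 21.5 CPM, stood far from the other 3 rev libraries, which lay between 7.04 and 8.88 CPM, by Dixon's test of the gap. It was the only flag among 9 sets of 4 libraries examined. Each set pooled both clones, which differ, so the usual chance rate of about 1 in 20 need not apply. The 2h libraries of clone 4 had 22.4 and 21.8 CPM, close to the flagged value. Which rev library of clone 4 was the unusual one cannot be told. The flagged library had 209 counts of Sprr1a. Rrad and Phlda1 stood at 52.9 and 5.67 CPM in the same library, beside 47.2 and 5.10 CPM in rev clone4_1.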

How the results depend on the processing

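Depth limits Sprr1a and Phlda1 at 4h most, since the 4h libraries of clone 8 held 1 and 0 and 10 and 4 counts. Of the 17 fitted values given without a test, only rev vs 2h changed sign under an alternative. Of 240 alternative values, 235 moved by no more than 1 SD of log2 CPM, taken from the more variable group compared. For comparisons between groups that SD pooled both clones. It therefore held the clone difference, which was large at 4h, and was a wider measure than the spread of replicates. Of 111 alternative tests of the 3 genes, 91 kept direction and side of the threshold. These include 15 for each gene of the interaction, for which the main fit called 0 genes, so a change of side was unlikely. For the clone difference at 2h, 6 of 11 alternatives kept both for Phlda1, 10 of 11 for Rrad and 7 of 11 for Sprr1a. In rev, 6, 11 and 9 of 11 did. The causes of the changes below were not tested, except that fewer samples enter where a library is left out.

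The samples share only a number, and the replicate block changed no call of the 3 genes: at 2h it gave Phlda1 -1.13 (edgeR adjusted p = 0.0247), Rrad -1.61 and Sprr1a -1.72. It moved the genes called from 866 to 653 in 2h vs 0h, from 525 to 539 between clones at 2h and from 538 to 519 in rev.

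Genes called in 2h vs 0h numbered 267 with scaling by total count, 1499 with mitochondrial genes and the 20 most abundant ones left out, 1305 without a filter and 1327 with the package's earlier quasi-likelihood method, which was added after seeing the data. Leaving out 1 library gave 308 to 1078. Between clones at 2h the 525 became 125, 858, 789 (earlier method), 116 with the groups compared alone, and 210 to 382 with 1 library left out. In rev the 538 became 32 with scaling by total count, 871 with the groups compared alone and 147 to 207 with 1 library left out. The share of calls that were higher was 7.11% in 4h vs 0h, 88.0% in rev vs 4h, 88% between clones at 2h and 3.13% in rev with scaling by total count, 40.9% and 60.9% in the first and second of these without a filter, and 31.9% between clones at 2h with the groups compared alone.

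With 1 library left out, 2h vs 0h was 1.86 to 3.32 for Phlda1 and 5.59 to 7.28 for Rrad, and rev vs 0h was 1.72 to 3.18 and 5.45 to 7.13, each lowest without 0h clone4_1. At 2h the clone difference was -1.39 to -0.88 for Phlda1 and -1.78 to -1.58 for Sprr1a, and in rev -1.35 to -1.21 for Phlda1 and -1.45 to -0.18 for Sprr1a. With scaling by total count it was -0.73, -1.13 and -1.26 at 2h for Phlda1, Rrad and Sprr1a, -1.50 (edgeR adjusted p = 0.164) in rev for Phlda1, and -3.36 at 4h for Rrad. With the groups compared alone Phlda1 at 2h was -1.12. Without a filter Sprr1a in rev passed (-0.94, edgeR adjusted p = 0.00275). With 1 library left out the interaction of clone with rev vs 2h was -0.39 to 0.11 for Phlda1 and -0.032 to 0.49 for Rrad, with the sign changed without 2h clone8_1, and for Rrad it was -0.50 with scaling by total count.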
